A study of Rattus norvegicus with 12 samples.

Results

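Transcripts of 10 genes of polyamine, arginine and ammonia metabolism were followed across 12 microarrays of rat colon. The genes were Odc1, Azin1, Oaz1, Sms, Srm, Sat1, Arg2, Ass1, Glul and Oat. They were taken by name from the gene spots of the array, which gave 13 probes among 30367. All 10 genes entered the tests, beside 10451 genes in all. The arrays carried total RNA labelled as colonic epithelium of male Wistar rats that weighed 180 to 200 g at the start. The rats had eaten a normal protein or a high protein diet for 6 weeks, with 6 samples for each diet. The sources used here give neither ages nor the composition of either diet. The labels do not say that the 6 samples of a diet came from separate animals, so p-values measure the spread between samples.

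Polyamines are small, positively charged molecules that dividing cells need, and the gut lining renews itself quickly. Ornithine decarboxylase makes putrescine from ornithine, and the spermidine and spermine synthases build the longer polyamines from it. Antizyme binds ornithine decarboxylase and sends it to the proteasome, and the antizyme inhibitor takes antizyme away. Ornithine itself comes from arginine through arginase, or is exchanged with glutamate through ornithine aminotransferase. The colon meets ammonia and amines that its bacteria release from undigested protein, and glutamine synthetase binds ammonia into glutamine. The diet comparison therefore asks whether more dietary protein goes with other transcript levels of these enzymes.

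No member passed the test between the diets. With each gene read by its probe of highest mean, Odc1 was the 1 member that passed it between arrays sorted by their Hox genes. A second Sms probe passed there in a fit of all tested probes. Its call ended with slide or replicate number as a block, with median scaling and without some single arrays. Odc1 was 1.58-fold higher on the 3 arrays with high Hoxb6 than on the 6 arrays with high Hoxb13. This difference was called in 18 of 24 alternative settings. Oat had a difference of like size, 1.48-fold, that missed the threshold narrowly and was called in 3 of 24 alternative settings. Azin1 and Sms had the smallest p-values among members in the diet comparison, in opposite directions, and neither held after adjustment.

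Hoxb13 and Hoxb6 are homeobox genes whose transcripts mark position along the gut, Hoxb13 at its far end and Hoxb6 nearer the front. All values are normalized log2 intensities, so a difference of 1 is a doubling. Hoxb13 lay between 11.996 and 12.56 on 6 arrays and between 5.83 and 9.32 on the other 6. Hoxb6 lay between 10.82 and 10.95 on 3 arrays and between 6.51 and 7.49 on the other 9. The first 6 arrays, normal protein replicates 1 and 2 and high protein replicates 1, 2, 5 and 6, are called Hoxb13-high below. The Hoxb6-high arrays were normal protein replicate 6 and high protein replicates 3 and 4. The 3 arrays high in neither gene were normal protein replicates 3, 4 and 5, so that class held 1 diet only and was reached through the diet term of the fit. These classes were set from measured values and are not groups of the study.

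**Figure D1:**
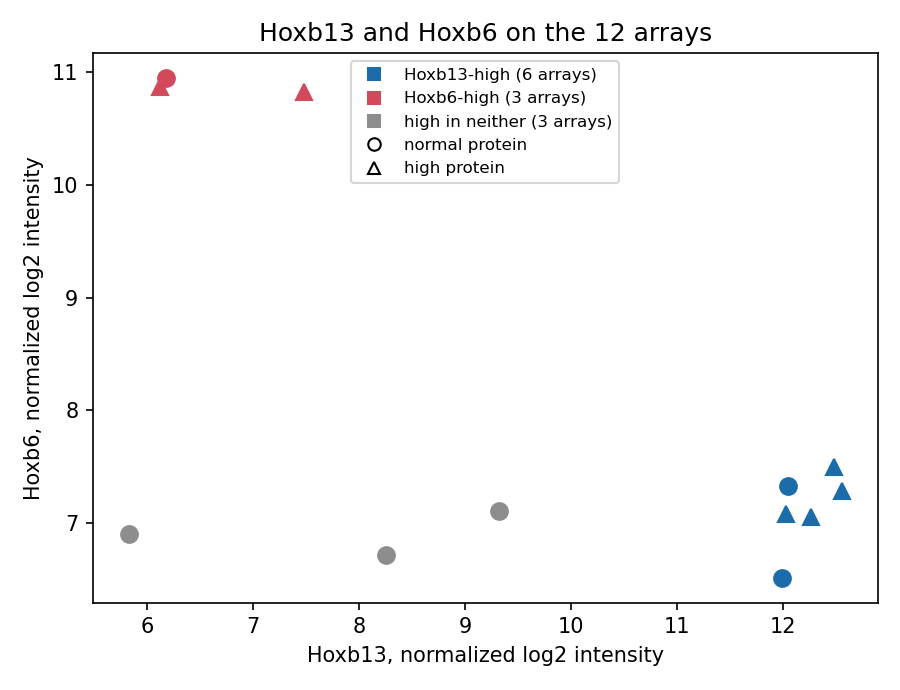
Normalized log2 intensity of Hoxb13 (horizontal axis) against Hoxb6 (vertical axis), 1 point per array, with the diet as the shape and the Hox class as the colour. The 6 Hoxb13-high arrays sit at 11.996 or above on the horizontal axis, and the 3 Hoxb6-high arrays sit at 10.82 or above on the vertical axis.

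Spots flagged good made up 42.67% of the gene spots on normal protein replicate 3, the lowest share, and 55.86% on high protein replicate 3, the highest. All pairs of arrays correlated between 0.923 and 0.985 over the genes tested. The 12 arrays lay on 3 slides of 4, and each slide held 2 arrays of each diet. All 10 listed epithelial markers could be tested, and so could all 6 smooth muscle markers, although the tissue is labelled epithelium. The smooth muscle list averaged 12.10 on normal and 11.94 on high protein, beside 12.15 and 11.97 for the epithelial list. The share of muscle in the samples was not tested. In such bulk samples, fewer cells of a type and less RNA per cell cannot be told apart.

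Odc1 encodes ornithine decarboxylase, the rate-limiting enzyme of polyamine synthesis. On normal protein its lowest, median and highest values were 8.05, 8.67 and 8.85, with a mean of 8.59 ± 0.31 (SD, n = 6). On high protein they were 8.15, 8.41 and 9.31, with a mean of 8.54 ± 0.42 (SD, n = 6). The diets overlapped from 8.15 to 8.85. The diet difference was -0.05 (95% interval -0.47 to 0.37), and its adjusted p was 0.96 by limma with Benjamini-Hochberg adjustment.

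By Hox class the same Odc1 values separated. The Hoxb13-high arrays had a lowest value of 8.05, a median of 8.29 and a highest value of 8.49. The arrays high in neither gene gave 8.55, 8.78 and 8.85. The Hoxb6-high arrays gave 8.82 on normal protein against 8.70 and 9.31 on high protein. Every Hoxb13-high array was below each of the other 6. On the probe of highest mean, such a separation in either direction was seen for 1 of the 10 members and for 3.57% of all genes tested. Hoxb6-high arrays exceeded Hoxb13-high arrays by 0.66 (SE 0.15), with an adjusted p of 0.0213 by limma with diet in the fit. In that comparison 1 of 10 members was called, against 6.61% of all genes.

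Set against all 6 other arrays, Odc1 on the Hoxb13-high arrays differed by -0.60 (SE 0.13), with a limma adjusted p of 0.0237. That grouping was added after the data were seen, and 3.20% of all genes were called in it, 166 higher (1.59%) and 168 lower (1.61%), or 195 and 83 with median scaling. Over all ways to divide the arrays into 6 and 6, the exact permutation test (two-sided) gave p = 0.0022, the smallest it can give. Within the slides, the other arrays exceeded the Hoxb13-high arrays by 0.21, 0.50 and 0.64, with no overlap on any slide. The separation of the 6 arrays from the other 6 fixes both that exact p and the lack of overlap. Neither is further evidence. The limma call in this grouping ended with slide as a block (-0.52, adjusted p = 0.062) and with median scaling (-0.49, adjusted p = 0.22). It also ended without normal protein replicate 2 (adjusted p = 0.075) and without high protein replicate 2 (adjusted p = 0.0501) or 4 (-0.46, adjusted p = 0.080). The Odc1 call between Hoxb6-high and Hoxb13-high arrays ended with slide as a block (0.56, adjusted p = 0.071) with median scaling (0.55, adjusted p = 0.18) and with Hoxb6 as a continuous value (0.14 per log2 unit of Hoxb6, adjusted p = 0.10). It also ended without normal protein replicate 6 (0.70, adjusted p = 0.065) or high protein replicate 4 (0.48, adjusted p = 0.064). Arrays high in neither gene exceeded Hoxb13-high arrays by 0.50 (SE 0.18), and their limma adjusted p was 0.43.

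The bases just upstream of Odc1 and Oat are shown because these members had the largest differences between the Hox classes. Both windows are the 250 bases before the annotated start in RefSeq on build GRCr8. They lie at chr6:46058415-46058664 on the + strand for Odc1 and at chr1:196797755-196798004 on the - strand for Oat. Capitals mark the GC box, the letters GGGCGG or, on the other strand, CCGCCC, which the transcription factor Sp1 is known to bind.
Odc1: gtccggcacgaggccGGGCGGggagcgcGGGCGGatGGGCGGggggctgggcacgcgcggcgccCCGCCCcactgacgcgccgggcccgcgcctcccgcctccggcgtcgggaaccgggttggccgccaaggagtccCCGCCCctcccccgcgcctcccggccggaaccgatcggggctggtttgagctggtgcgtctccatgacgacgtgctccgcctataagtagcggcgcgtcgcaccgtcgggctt
Oat: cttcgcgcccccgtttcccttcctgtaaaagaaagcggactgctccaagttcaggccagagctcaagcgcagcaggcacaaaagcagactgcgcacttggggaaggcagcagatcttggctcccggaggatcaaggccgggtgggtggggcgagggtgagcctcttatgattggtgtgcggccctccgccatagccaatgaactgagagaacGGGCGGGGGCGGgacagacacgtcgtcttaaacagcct
The Odc1 window held 5 GC boxes, with first bases at -235, -222, -214, -186 and -113 from the start. The Oat window held 2, at -38 and -32, which abut without sharing a base. A GC box stood in 8 of the 9 windows found for 8 of the 10 members, and in 30.5% of all 33469 such windows. The letters CCAATAAA, a core that HOXB13 is known to prefer, were searched on both strands. They stood in 1.05% of all windows and in neither of the windows shown, which says only that these letters are not there. Among the members they stood in 1 of the Glul windows, at -32. The E-box letters CACGTG, which MYC and related factors bind, stood in the Srm window at -173 and in the Oaz1 window at -234, and in 5.59% of all windows.

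Azin1 encodes the antizyme inhibitor, an inactive relative of ornithine decarboxylase that frees the enzyme from antizyme. On normal protein its lowest, median and highest values were 7.17, 7.28 and 7.41. On high protein they were 6.82, 7.06 and 7.27. The diets overlapped at one edge, and 0 of 6 high protein arrays lay above the normal protein mean. The means were 7.28 ± 0.08 and 7.05 ± 0.15 (SD, n = 6 each). The difference of -0.23 (SE 0.08) had an exact permutation p of 0.0065 (two-sided) and a limma adjusted p of 0.70 over all genes. Within the slides it was -0.13, -0.22 and -0.33. With Hox class in the fit it was -0.17 (SE 0.10).

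Azin1 gave 7.30, 7.30 and 7.41 on the arrays high in neither gene and 7.24, 6.82 and 7.12 on the Hoxb6-high arrays. The Hoxb13-high arrays ran from 6.98 to 7.27. The 3 arrays high in neither gene, all on normal protein, stood above every other array. The Azin1 spots were dim, with 49 to 123 intensity units over the local background.

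Oaz1 encodes antizyme 1, whose translation polyamines raise through a ribosomal frameshift that a transcript level does not show. Its values were 12.61, 13.01 and 13.15 on normal protein (lowest, median, highest) and 12.41, 12.86 and 13.07 on high protein. The diet difference was -0.18 (SE 0.13, limma adjusted p = 0.78). It was below 0 on each slide, at -0.01, -0.16 and -0.39. The Hox classes overlapped, with 12.41 to 13.07 on Hoxb13-high arrays, 12.45, 12.83 and 13.06 on Hoxb6-high arrays and 12.98 to 13.15 on the others. Normal protein replicate 2 and high protein replicates 3 and 5, all on the third slide, gave the 3 lowest values.

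Sms encodes spermine synthase, which adds the last aminopropyl group to make spermine. The probe of highest mean gave 8.42, 8.65 and 8.75 on normal protein against 8.67, 8.80 and 9.12 on high protein (lowest, median, highest). All 6 of 6 high protein arrays lay above the normal protein mean, and the ranges overlapped between 8.67 and 8.75. The difference was 0.24 (SE 0.09), with an exact permutation p of 0.022 (two-sided) and a limma adjusted p of 0.71. Within the slides it was 0.36, 0.08 and 0.27. With Hox class in the fit it was 0.19 (SE 0.11). The second tested Sms probe gave a diet difference of 0.13, with an exact permutation p of 0.34. A further Sms probe was flagged good on 1 array and was not tested.

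The Sms probes also differed in how they followed the Hox classes. On the probe of highest mean, Hoxb6-high minus Hoxb13-high arrays came to -0.20 (SE 0.11, limma adjusted p = 0.32). On the second probe the Hoxb13-high arrays ran from 8.73 to 8.96, the Hoxb6-high arrays from 8.33 to 8.66 and the arrays high in neither gene from 8.44 to 8.57. There every Hoxb13-high array stood above each of the other 6. In a limma fit of all 11737 tested probes the second probe fell by 0.41 (SE 0.10) from Hoxb13-high to Hoxb6-high arrays, with an adjusted p of 0.0286, where 6.53% of probes were called. With replicate number as a block that call ended (-0.48, adjusted p = 0.39). It also ended with slide as a block (adjusted p = 0.072), with median scaling (adjusted p = 0.064), and without any 1 of 6 arrays. Those arrays were normal protein replicates 1 and 6 and high protein replicates 2, 4, 5 and 6, with differences between -0.33 and -0.42.

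Srm encodes spermidine synthase, the enzyme one step earlier. Its probe of highest mean gave 8.52, 8.89 and 8.98 on normal protein against 8.69, 8.87 and 9.08 on high protein (lowest, median, highest). The diets overlapped from 8.69 to 8.98, with a difference of 0.02 (95% interval -0.18 to 0.23). Its Hoxb6-high arrays (8.95, 8.69 and 8.89) lay inside the range of the Hoxb13-high arrays. The second Srm probe, between 7.19 and 8.18, gave a diet difference of 0.05 and a Hoxb6-high minus Hoxb13-high difference of 0.02.

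Sat1 encodes spermidine/spermine acetyltransferase, which marks polyamines for breakdown and export. Its lowest, median and highest values were 9.95, 10.34 and 10.76 on normal protein against 9.91, 10.24 and 10.66 on high protein. The diets overlapped from 9.95 to 10.66, with a difference of -0.05 (95% interval -0.38 to 0.29). Hoxb6-high arrays gave 9.95, 9.91 and 10.36, and Hoxb13-high arrays ran from 10.09 to 10.76. The Sat1 class difference of -0.34 had a limma adjusted p of 0.29.

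**Figure D2:**
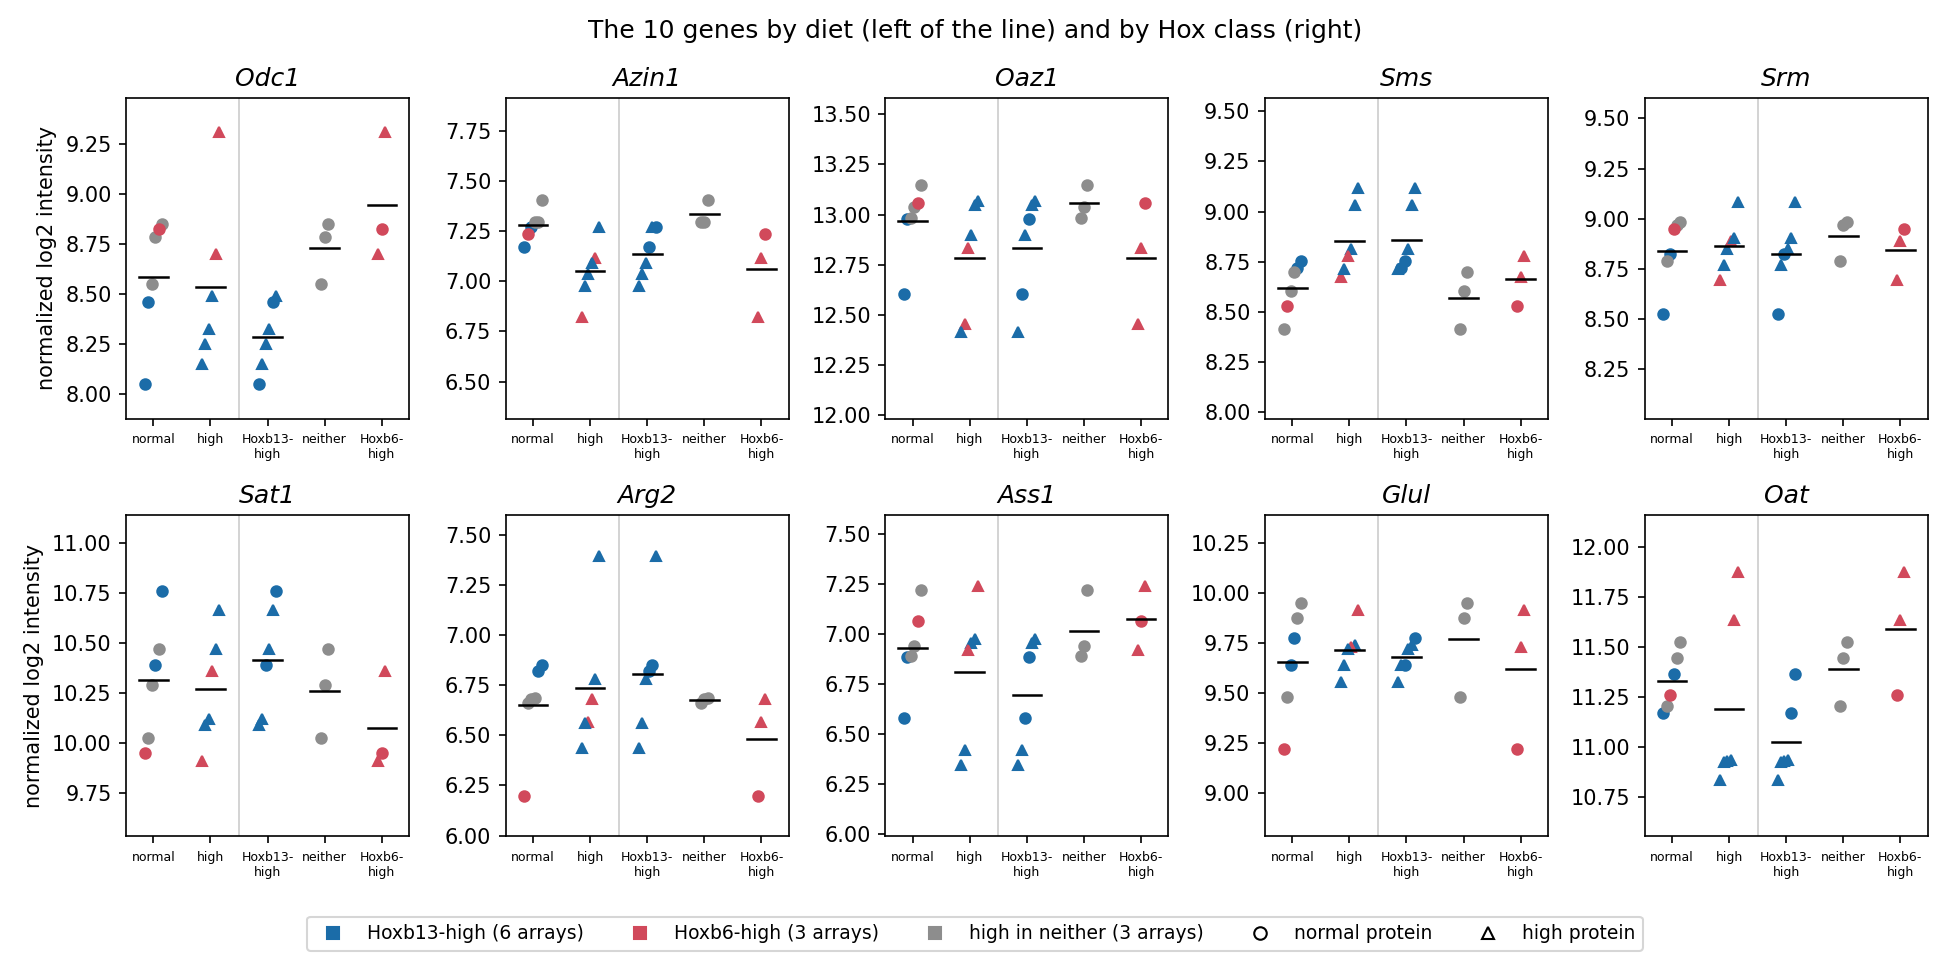
Normalized log2 intensity of each of the 10 genes (vertical axes, each with its own range), 1 point per array, by diet left of the grey line and by Hox class right of it. Horizontal bars are means, colours the Hox class and shapes the diet, and the Odc1 points of the 6 Hoxb13-high arrays lie below the points of the other 6 arrays.

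Arg2 encodes the mitochondrial arginase, which splits arginine into urea and ornithine. Its probe was close to background, with 19 to 103 intensity units over it, and was flagged good on 7 of the 12 arrays. The lowest, median and highest Arg2 values were 6.198, 6.68 and 6.85 with the normal diet. The high protein arrays gave 6.44, 6.62 and 7.39. The diets overlapped, and the difference of 0.09 (95% interval -0.25 to 0.43) changed its sign without normal protein replicate 6 or high protein replicate 5. The Hoxb6-high arrays gave 6.198, 6.57 and 6.68 and the Hoxb13-high arrays 6.44 to 7.39, a difference of -0.33 with a limma adjusted p of 0.34.

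Ass1 encodes argininosuccinate synthase, which joins citrulline and aspartate on the way back to arginine. Its probe was dim too, at 24 to 108 intensity units over background, and was flagged good on 9 of the 12 arrays. Normal protein gave 6.58, 6.92 and 7.22 and high protein gave 6.35, 6.94 and 7.24 (lowest, median, highest). The diet difference was -0.12 (SE 0.16, limma adjusted p = 0.86), with overlapping ranges. Ass1 on the Hoxb6-high arrays, at 7.06, 7.24 and 6.92, stood in the upper part of the Hoxb13-high range of 6.35 to 6.97 or above it. That Ass1 difference was 0.38 (SE 0.16), with an unadjusted limma p of 0.039 and an adjusted p of 0.21.

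Glul encodes glutamine synthetase, which fixes ammonia. Its values were 9.22, 9.71 and 9.95 on normal protein against 9.55, 9.72 and 9.92 on high protein (lowest, median, highest). The diets overlapped, with a difference of 0.06 (95% interval -0.20 to 0.31). The Hoxb13-high arrays were tightly grouped at 9.68 ± 0.08 (SD, n = 6), whereas the Hoxb6-high arrays gave 9.22, 9.92 and 9.73. The lowest of these was the normal protein array.

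Oat encodes ornithine aminotransferase, the mitochondrial enzyme between ornithine and glutamate semialdehyde. Its lowest, median and highest values were 11.17, 11.31 and 11.53 on normal protein against 10.84, 10.93 and 11.88 on high protein. The high protein arrays thus held both the lowest and the highest Oat values, and the diet difference was -0.14 (SE 0.18, limma adjusted p = 0.86). The Hoxb13-high arrays ran from 10.84 to 11.36 with a median of 10.93. The arrays high in neither gene gave 11.21, 11.53 and 11.44, and the Hoxb6-high arrays gave 11.26, 11.88 and 11.64. The classes overlapped through normal protein replicate 1, whose 11.36 was the highest Hoxb13-high value.

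For Oat, Hoxb6-high minus Hoxb13-high arrays came to 0.56 (SE 0.15), with a limma adjusted p of 0.0515. The difference passed the threshold without normal protein replicate 1 (0.64, adjusted p = 0.030) or replicate 6 (0.85, adjusted p = 0.0029). It passed as well with no diet term (0.56, adjusted p = 0.043), and with slide as a block it was 0.60 (adjusted p = 0.10). Of 24 alternative settings these 3 alone called Oat, and its adjusted p went up to 0.62. With 1 array left out the difference ran from 0.39 to 0.85 and the adjusted p from 0.0029 to 0.21. The Hoxb13-high arrays against all 6 others gave -0.47 (SE 0.14, limma adjusted p = 0.091) and an exact permutation p of 0.0087 (two-sided). Within the slides the other arrays exceeded the Hoxb13-high arrays by 0.16, 0.51 and 0.65, with overlap on the first slide.

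The diet difference of Oat also had opposite signs in the Hox classes. Among Hoxb13-high arrays, normal protein gave 11.36 and 11.17 and high protein gave 10.84, 10.93, 10.93 and 10.93, a difference of -0.36. Among Hoxb6-high arrays the single normal protein array gave 11.26 and the high protein arrays 11.88 and 11.64. The interaction was 0.86, with an unadjusted limma p of 0.0025 and an adjusted p of 0.11. For Glul the interaction was 0.65 (unadjusted p = 0.011, adjusted p = 0.23). No member was called in this test, against 1.26% of all genes, and the Hoxb6-high class held normal protein replicate 6 as its single array of that diet.

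Read together over the diets, 0 of 10 members and 0 of 10451 genes had a limma adjusted p under 0.05, which is 0% of all genes. At an unadjusted p under 0.05 there were 2 of 10 members, Azin1 and Sms, and 694 genes, or 6.64%. The median diet difference was -0.05 over the members and 0.01 over all genes. The diets overlapped for every member, and failed to overlap for 0.383% of all genes. Azin1, Oaz1 and Sms kept 1 sign on all 3 slides, Oaz1 with -0.0075 on the first, and the other 7 members did not. The share of all genes that kept 1 sign was not counted, so this only describes the members. With median scaling of the arrays, the differences of Odc1, Oaz1, Sat1 and Oat turned from below to above 0, and the median over all genes moved from 0.0054 to 0.097. The widest 95% interval among the members was that of Odc1, from -0.47 to 0.37.

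**Figure D3:**
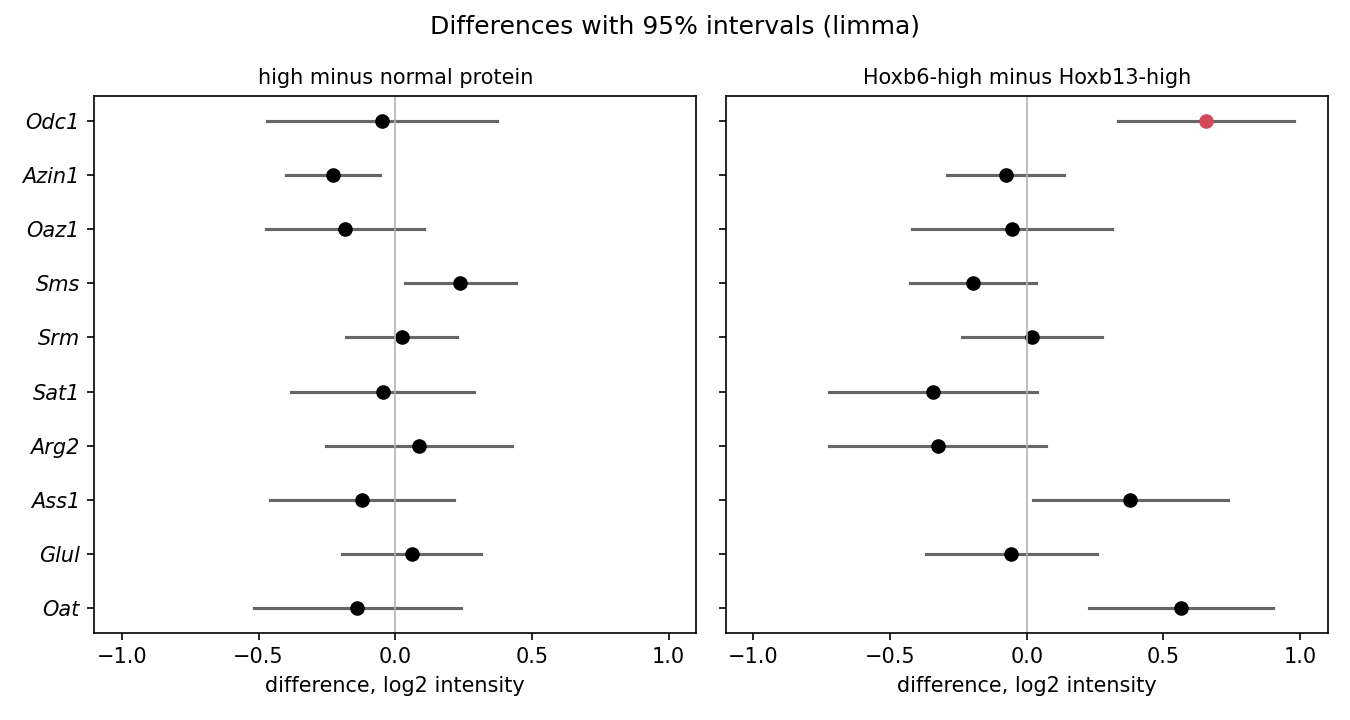
Differences in log2 intensity (horizontal axes) of the 10 genes, with 95% intervals from limma, for high minus normal protein on the left and Hoxb6-high minus Hoxb13-high arrays on the right. Red marks an adjusted p under 0.05, which was reached by Odc1 on the right (0.66) and by no member on the left.

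Between Hoxb6-high and Hoxb13-high arrays, 4 of 10 members were higher and 6 lower, and the median was -0.05 beside -0.01 for all genes. Unadjusted p-values under 0.05 came from 3 of 10 members, Odc1, Oat and Ass1, all higher on Hoxb6-high arrays, and from 21.0% of all genes. Of all genes, 303 (2.90%) were called higher and 388 (3.71%) lower, and with median scaling 125 and 374. On the probe of highest mean, these classes did not overlap for Odc1 alone among the members, and for 10.6% of all genes. They did not overlap on the second Sms probe either. Arrays high in neither gene against Hoxb13-high arrays gave 0 of 10 members called and 0.517% of all genes, and at an unadjusted p under 0.05 Odc1 and 7.65% of all genes.

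Of the listed markers, only Fabp2 and Des were called between Hoxb6-high and Hoxb13-high arrays. Fabp2, a fatty acid binding protein typical of small intestine, was higher on Hoxb6-high arrays by 2.02 (SE 0.35, limma adjusted p = 0.0055) and higher by 2.35 where neither Hox gene was high. It was the single tested gene of 5 small intestine markers, and it ran from 8.41 to 9.55 on Hoxb13-high arrays and from 9.74 to 12.01 on the other 6. All 6 of 6 smooth muscle markers were lower on Hoxb6-high arrays, with Des called (-0.96, adjusted p = 0.032). Their mean level ran from 11.14 to 11.93 there and from 11.86 to 12.33 on Hoxb13-high arrays. Endothelial markers (3 of 4 tested) averaged 8.62 to 9.79 against 8.52 to 8.76, and glial and neuronal markers (4 of 5) 7.12 to 8.50 against 7.09 to 7.32. Of 6 proliferation genes, 5 were lower on Hoxb6-high arrays and none was called, with mean levels of 8.12 to 8.96 against 8.28 to 9.12. No endothelial, glial or neuronal marker was called, nor was Hbb, the tested blood marker (0.61, limma adjusted p = 0.32). The mean levels of the smooth muscle, endothelial, glial and neuronal, and proliferation lists overlapped between these classes. Epithelial, fibroblast and leukocyte means overlapped as well, and 0 of 3 liver markers passed the filter on dim probes. The part of these markers in the Odc1 difference was not tested.

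Of 59 further genes listed for the same pathways, 37 could be tested. Between the diets 0 of 37 were called, and 0 had an unadjusted limma p under 0.05, beside 6.64% of all genes. Their median difference was -0.05. Atp13a2, a lysosomal polyamine exporter, differed by 0.13 (limma, unadjusted p = 0.065). Oaz2, a second antizyme, differed by -0.23, and Slc3a2, the heavy chain of several amino acid transporters, by -0.16. On the higher side Aldh4a1, a proline-breakdown enzyme, differed by 0.15.

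By Hox class 4 of the 37 listed genes were called between Hoxb6-high and Hoxb13-high arrays, 2 in each direction, against 6.61% of all genes. Of the 15 ornithine, proline and ammonia genes 2 were higher and none lower, of the 8 arginine and urea cycle genes 2 were lower and none higher, and of the 14 polyamine genes none was called. Over the 37 genes the median was -0.01.

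Glud1 encodes glutamate dehydrogenase, which frees ammonia from glutamate. Its Hoxb6-high values of 11.52, 12.05 and 11.91 stood above the Hoxb13-high range of 10.76 to 11.40. The Glud1 difference was 0.81 (SE 0.15, limma adjusted p = 0.010), and the call ended without high protein replicate 3 (0.70, adjusted p = 0.057) and with median scaling (0.62, adjusted p = 0.068).

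Ddah1 encodes an enzyme that breaks down methylated arginines, which inhibit nitric oxide synthase. Ddah1 gave 8.98, 9.27 and 9.10 on Hoxb6-high arrays and 9.83 to 10.29 on Hoxb13-high arrays. These ranges did not overlap, and Ddah1 fell by 0.96 (SE 0.13, limma adjusted p = 0.0011). Arg1 encodes the cytosolic arginase of the urea cycle. Its Hoxb6-high values of 6.35, 6.33 and 6.13 were below the Hoxb13-high range of 6.56 to 6.69. The Arg1 difference was -0.34 (SE 0.09, adjusted p = 0.040), and its call ended with slide as a block (adjusted p = 0.12), with 75th percentile scaling (-0.26, adjusted p = 0.33), with median scaling (adjusted p = 0.11) and without any 1 of 10 arrays, with differences between -0.38 and -0.27. The Arg1 probe was flagged good on fewer than 9 arrays. The calls of Glud1 and Ddah1 held with slide as a block, at 0.95 and -0.98. With replicate number as a block they ended, at 0.94 (adjusted p = 0.19) and -0.67 (adjusted p = 0.38). The Arg1 call ended there as well (-0.21, adjusted p = 0.63).

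Further genes named by the same rule did not pass. Oaz2 was at 0.40 between Hoxb6-high and Hoxb13-high arrays (adjusted p = 0.091), and Got2, the mitochondrial aspartate aminotransferase, at -0.36 (adjusted p = 0.092). On arrays high in neither gene, 0 of 37 listed genes were called. There Oaz2 was at 0.40 and Nags, which makes the activator of the urea cycle's first enzyme, at 0.34. Aldh4a1 was at -0.38 (limma, unadjusted p = 0.0059 and adjusted p = 0.29), Got2 at -0.20 and Rhbg, an ammonium transporter, at -0.24.

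Across the 12 arrays and 8847 named genes, the patterns most like each member were found by Pearson correlation, given here as a description. The points share normalization, slides and, for many genes, the Hox classes. Odc1 was most like Tnfrsf21 (0.94) and Trpm4 (0.92). Oat was most like St6galnac2 (0.91) and Car8 (0.91). Azin1 was most like Gspt1 (0.92) and Gjb2 (0.91), and Oaz1 like Plec (0.92) and Tbc1d10b (0.90). Each gene named was picked for its size of correlation. Sms was most like Cage1 (0.94) and Mynn (0.90), and Srm like Ctps1 (0.86) and Yars1 (0.81). Sat1 was most like Pigo (0.84) and Padi1 (0.83), and Arg2 like Cdca2 (0.96) and Pcdh20 (0.92). Ass1 was most like Asb2 (0.94) and Ngfr (0.91), and Glul like Trim26 and Wnt2b (0.89 each). No member was among the 2 closest genes of another.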

How the data were processed

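Per the file headers, each deposited file holds 1 single-colour (Cy3) array measured with GenePix, as spot intensity on a linear scale, with a median local background and a flag score for each spot, not normalized by the authors. RMA appears in the submitters' processing notes without a version, and per the labels the authors' value table holds log2 values. Its IDs were displaced by 1 row: moved, its columns correlated with the scanner values at 0.796 to 0.884, and as given at 0.098 or less. It served as an alternative only.

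Mean pixel intensity was corrected with normexp (offset 50), after which 2343 control spots were left out. The gene spots were then quantile normalized over the 12 arrays, and spots of a probe averaged. Probes entered the tests if 6 or more arrays had flagged 0.5 or more of their spots as good. A gene is its tested probe of highest mean, named through RefSeq accessions (18355 of 30367 probes matched) or the file's gene name. Of 13204 probes passing the flags, 1467 had no name and were left out. Tests used limma 3.58.1 in R 4.3.3 (lmFit, eBayes) with Benjamini-Hochberg adjustment over all 10451 genes. The procedure was also run on simulated data with independent noise for each probe. That noise held no slide effects and nothing shared between genes, so the run cannot speak to those.

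The 2 Hox class differences have diet in the fit. The members, gene lists, marker lists and class sizes were chosen with earlier results of these data known. Besides the 10 members, the text names the up to 3 listed genes of smallest p on each side of each comparison, and the 2 genes most like each member. Some genes that this rule names are not reported here. The number of arrays limits the precision. The alternatives were background, scaling, filter and probe choices, blocks, arrays left out, and Hox levels as continuous values.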

Additional observations from a re-analysis of the deposited data

Results flagged for a closer look

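Among 30 sets of 6 arrays checked (10 members by normal protein, high protein and Hoxb13-high), 3 had 1 array far from the rest by Dixon's test, and chance gives about 1 in 20. Oaz1 on normal protein replicate 2 was the lowest of its diet at 12.61, with the next array at 12.98. Arg2 on normal protein replicate 6 was the lowest of its diet at 6.198, with the next at 6.66. Arg2 on high protein replicate 5 was the highest of its diet at 7.39, with the next at 6.78. Leaving these arrays out moved the Oaz1 diet difference from -0.18 to -0.26, and the Arg2 one from 0.09 to -0.00314 or -0.04.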

How the results depend on the processing

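The differences of Odc1, Oat and Sms between Hoxb6-high and Hoxb13-high arrays, and of Azin1 and Sms between diets, kept their direction in every setting run. No diet difference of a member passed in any setting. The genes called by diet were 0, and became 1 (Bik) within the third slide, 4 (Mt2A, Mt1, LOC100362769, FQ220235) with Hox class in the fit and 1 (Mt2A) within the Hoxb13-high arrays. Hoxb6-high against Hoxb13-high arrays called 691 genes, 395 with slide as a block and 404 to 936 with 1 array left out. Arrays high in neither gene against Hoxb13-high called 54 genes, 24 with no flag filter, 166 with no diet term, 418 with Hoxb13 as a continuous value and 11 to 59 with 1 array left out. Hoxb13-high arrays against the other 6 called 334 genes, 175 with slide as a block and 168 to 403 with 1 array left out.

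The labels do not say that the replicate numbers pair the samples. Of 6 same-numbered pairs, 3 had deviations correlated above 0.1, and 2 normal protein arrays correlated best with their own number. These values do not settle whether the samples were paired. With the replicate block, the class comparisons called 27, 0 and 0 genes and the diet comparison 0. Odc1 was then at 0.70 (limma adjusted p = 0.34) between Hoxb6-high and Hoxb13-high arrays and at -0.70 (adjusted p = 0.37) between Hoxb13-high and the other 6, so both calls ended.

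Diet differences whose sign turned were as follows. With 75th percentile scaling Sat1 was at 0.0031 and Arg2 at -0.063. With median scaling Odc1 was at 0.076, Oaz1 at 0.012, Sat1 at 0.13 and Oat at 0.035. Within the first slide Srm was at -0.096, Arg2 at -0.15 and Glul at -0.11. Within the second Odc1 was at 0.063 and Sat1 at 0.25. Within the third Odc1 was at 0.0078, Ass1 at 0.030, Glul at -0.0059 and Oat at 0.052. With Hox class in the fit Odc1 was at 0.093, and within the Hoxb13-high arrays Odc1 was at 0.049, Oaz1 at 0.064, Arg2 at -0.042 and Glul at -0.044. With 1 array left out Odc1 ran from -0.20 to 0.028, Srm from -0.040 to 0.057, Sat1 from -0.12 to 0.043, Arg2 from -0.044 to 0.15 and Glul from -0.028 to 0.12.

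Between Hoxb6-high and Hoxb13-high arrays, Srm turned to -0.021 with 75th percentile scaling, -0.091 with median scaling, -0.022 with slide as a block and -0.00061 per log2 unit of Hoxb6. With slide as a block Oaz1 was at 0.0069 and Glul at 0.090. With the replicate block Azin1 was at 0.092, Oaz1 at 0.27 and Srm at -0.15, and for arrays high in neither gene Oat was at -0.023. With 1 array left out Azin1 ran from -0.14 to 0.022, Oaz1 from -0.21 to 0.11, Srm from -0.11 to 0.12 and Glul from -0.19 to 0.16. The cause of these turns was not tested. The Arg2 and Ass1 probes were flagged good on 7 and 9 of 12 arrays, which limits those values.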
